A study of Mus musculus with 12 samples.

Results

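*Tnf*, *Il6*, *Il10*, *Lif*, *Osm* and *Il12b*, which encode secreted cytokines, and *Tnfrsf1a*, *Tnfrsf1b*, *Il10ra* and *Il6ra*, which encode receptor chains for some of them, were followed through 12 RNA-seq libraries of mouse microglia. These 10 genes were picked by symbol, as inflammatory cytokines and their receptors in microglia, from the 55401 genes of the count tables. All 10 passed the filter on low counts, which left 16451 genes for testing. *Lif*, *Il12b* and *Il10* passed it through the groups in which they were higher: *Lif* had at most 2 counts in each of the 6 sham libraries, and in each WT-Sham library *Il12b* had at most 4 counts and *Il10* at most 6.

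Each cytokine acts through its own receptors. TNF is made as a membrane protein, is cut loose by the protease ADAM17, and binds TNFR1 (*Tnfrsf1a*), which most cells carry and which can signal cell death, and TNFR2 (*Tnfrsf1b*), which is carried mainly by immune and endothelial cells. IL-6, LIF and oncostatin M signal through the shared chain gp130 (*Il6st*) and turn on STAT3, whereas IL-10 binds IL10RA together with *Il10rb* and restrains the production of inflammatory cytokines in myeloid cells. *Il12b* encodes p40, the subunit common to IL-12 and IL-23. After ischemia, microglia are known as a source of TNF in the brain, and HDAC3, the deacetylase removed here, works in corepressor complexes at many inflammatory genes.

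The study asked how loss of HDAC3 from microglia changes their state after stroke. WT mice were CX3CR1wt/wt:HDAC3loxp/loxp and so carried the floxed alleles without Cre, and miKO mice were CX3CR1CreER/wt:HDAC3loxp/loxp, with CreER driven from one *Cx3cr1* allele. Males received tamoxifen for 5 days at 6 to 8 weeks of age, and at least 1 month later underwent transient focal cerebral ischemia (tFCI, occlusion of the left middle cerebral artery for 60 min) or Sham surgery without the occlusion. CD45int CD11b+ cells were sorted on day 3 after tFCI, and each library pooled cells from 3 to 4 hemispheres. Each of the 4 combinations of genotype and surgery had 3 libraries, and the labels put replicate 1 of every group in batch 1 and replicates 2 and 3 in batch 2.

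The libraries held 7697864 to 9452222 counts on genes. *Hdac3* was at 35.0 to 46.4 TMM-scaled CPM (counts relative to each library's effective size) in WT-Sham and 20.9 to 25.8 in miKO-Sham, and at 43.9 to 54.0 in WT-tFCI and 27.1 to 36.0 in miKO-tFCI, so that no miKO library reached a WT library of the same surgery. *Cx3cr1*, whose one allele carries CreER in miKO, was at 3290 to 4370 CPM in WT-Sham and 1050 to 1450 in miKO-Sham. All 10 microglia markers (*P2ry12*, *Tmem119*, *Sall1* and others) were present in every group, and their summed level was 26700 to 35700 CPM in WT-Sham, 27200 to 32400 in miKO-Sham, 19800 to 22100 in WT-tFCI and 10400 to 20300 in miKO-tFCI. miKO-tFCI replicate 1 had the lowest sum (10400 CPM) and stood farthest from the other replicates of its group (chi-square per degree of freedom 54.9 and 76.6, against 2.82 to 40.8 for pairs not holding it). miKO-Sham replicates 1 and 2 were the closest pair (2.82) although labelled as different batches. They differed by more than counting noise and each was kept as a library, but this does not show that they came from separate pools of cells. If they did not, the spread within miKO-Sham would be understated. Summed markers of other cells also moved with the groups. Those of monocytes and macrophages were at 15.7 to 97.7 CPM in WT-Sham, 62.6 to 124 in miKO-Sham, 384 to 682 in WT-tFCI and 455 to 1030 in miKO-tFCI, with none of the 10 at 0 throughout a group. Of that sum, *Fn1* was at 296 to 446 CPM in WT-tFCI and 122 to 358 in miKO-tFCI. The other 9 markers together were at 15.5 to 94.5, 60.3 to 112, 81.8 to 236 and 318 to 676 CPM in the same order. In miKO-tFCI vs. WT-tFCI, 3 of the 10 were called by edgeR, *Chil3*, *Ccr2* and *Itga4*. All were higher (log2 2.23, 2.16 and 1.10), as were 4.08% of all genes. Summed neutrophil markers were at 52.2 to 848 (848 in replicate 1), 355 to 387, 171 to 234 and 858 to 1090 CPM in the same order. Again none of the 10 was at 0 throughout a group. Those of border-associated macrophages were at 572 to 707, 1390 to 1660, 693 to 1030 and 957 to 2130 CPM, with none of the 8 at 0 throughout a group. *Stab1* made up most of that sum, and the other 7 markers together were at 99.8 to 126, 85.6 to 322, 165 to 283 and 296 to 824 CPM in the same order. *Mrc1*, *Cd163*, *Lyve1* and *Pf4* were each lower in miKO-Sham replicates 1 and 2 than in any WT-Sham library (*Mrc1* at 19.6 and 17.5 against 32.7 to 42.8 CPM). In miKO-Sham replicate 3, however, *Mrc1* (81.7 CPM), *Cd163* (18.1) and *Lyve1* (19.7) were above every WT-Sham library. Of the 8 markers, 2 were called in miKO-Sham vs. WT-Sham, *Folr2* and *Stab1*, both higher (log2 2.65 and 1.43, edgeR adjusted p = 7.93e-07 and 0.000832). The part of these cells in the results on the cytokine genes was not tested, and in these sorted bulk samples fewer cells of a type and less RNA per cell cannot be told apart.

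Promoter sequence was at hand for 7 of the 10 genes (RefSeq, GRCm38.p6, from 250 bases before the start site to 50 bases from it), the others being *Il10*, *Osm* and *Il10ra*. The promoters of *Tnf*, *Il12b* and *Il6* are shown because *Tnf* and *Il12b* rose after tFCI in WT and differed in their response between genotypes, whereas *Il6* fell. They are printed 5′ to 3′ on the strand of the gene, at chr17:35201958-35202257 (minus strand) for *Tnf*, chr11:44399813-44400112 (plus strand) for *Il12b* and chr5:30012864-30013163 (plus strand) for *Il6*. Capitals mark matches on either strand to the motifs listed after the sequences.
Tnf: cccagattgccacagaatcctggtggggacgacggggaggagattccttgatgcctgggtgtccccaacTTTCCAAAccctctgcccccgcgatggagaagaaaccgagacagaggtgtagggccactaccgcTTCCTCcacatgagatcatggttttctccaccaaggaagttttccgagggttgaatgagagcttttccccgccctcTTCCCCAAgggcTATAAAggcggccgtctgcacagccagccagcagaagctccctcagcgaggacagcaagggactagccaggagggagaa
Il12b: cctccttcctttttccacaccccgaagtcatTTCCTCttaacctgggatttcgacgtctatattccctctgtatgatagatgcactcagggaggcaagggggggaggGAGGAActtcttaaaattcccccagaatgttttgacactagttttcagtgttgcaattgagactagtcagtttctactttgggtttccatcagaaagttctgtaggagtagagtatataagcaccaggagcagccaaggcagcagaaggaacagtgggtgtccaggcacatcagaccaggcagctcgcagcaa
Il6: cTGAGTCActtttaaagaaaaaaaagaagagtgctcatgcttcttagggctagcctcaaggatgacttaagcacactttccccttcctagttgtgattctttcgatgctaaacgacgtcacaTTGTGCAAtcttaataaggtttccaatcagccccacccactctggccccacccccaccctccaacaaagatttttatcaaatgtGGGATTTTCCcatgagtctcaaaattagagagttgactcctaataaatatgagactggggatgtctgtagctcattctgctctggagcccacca

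The motifs searched on both strands were NF-kB (in 4.79% of 32851 RefSeq promoters of this length), AP-1 (TGANTCA, 7.81%), CRE (TGACGTCA, 1.79%), C/EBP (TTNCNNAA, 40.7%), PU.1 (GAGGAA, 28.3%), IRF (3.44%), STAT (TTCNNNGAA, 8.30%) and the TATA box (TATAAA, 13.6%). Positions count from the start site. The *Tnf* window held a TATA box at -29, a PU.1 match at -117 and C/EBP matches at -181 and -41. The *Il12b* window held PU.1 matches at -219 and -143. The *Il6* window held an NF-kB match (GGGATTTTCC) at -44, a C/EBP match at -128 and an AP-1 match at -249. Of the other 4 windows, that of *Lif* held an AP-1 match at -228, that of *Tnfrsf1a* a STAT match at -244, that of *Tnfrsf1b* PU.1, STAT and IRF matches at -208, -181 and -10, and that of *Il6ra* C/EBP matches at -116 and -70, the latter sharing bases with a PU.1 match. A match is a description of the letters in these windows and does not show binding.

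Compared per length of exon, the genes spanned a wide range of levels. In WT-Sham the receptors led, with *Il10ra* at 250 CPM per kb ± 23.7 (SD, n = 3), *Tnfrsf1b* at 103 ± 6.05 and *Tnfrsf1a* at 77.7 ± 8.07, followed by the cytokine *Tnf* at 46.7 ± 8.72 and *Osm* at 44.1 ± 1.97, which overlapped each other, and *Il6ra* at 34.7 ± 0.932. *Il6* was far lower at 3.16 CPM per kb ± 0.695, and *Il10*, *Il12b* and *Lif* were below 1 CPM per kb in every WT-Sham library. In WT-tFCI *Tnf* ranked first of the 10 genes at 356 CPM per kb ± 106, with *Osm* at 141 ± 29.3 next to *Il10ra* at 144 ± 17.0, whose libraries overlapped. In miKO-tFCI *Tnf* was also first at 182 CPM per kb ± 58.8, overlapping *Il10ra* at 115 ± 33.1. *Lif* was last of the 10 genes in WT-Sham, miKO-Sham and WT-tFCI and *Il10* was last in miKO-tFCI.

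**Figure D1:**
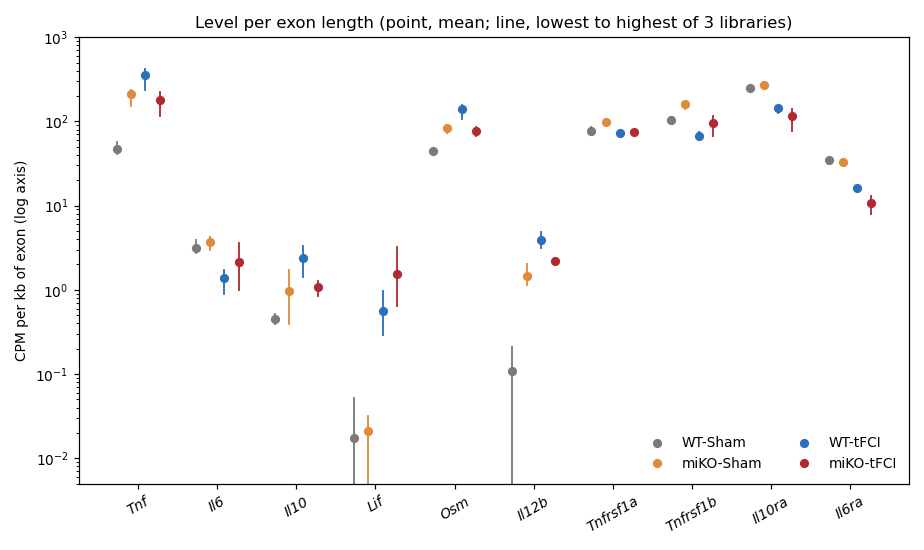
Level of the 10 genes in CPM per kb of exon (log axis), with the mean of each group as a point and a line from the lowest to the highest of its 3 libraries. *Tnf* in WT-tFCI and *Il10ra* in both sham groups lie above 100 CPM per kb, whereas *Lif* in both sham groups and *Il12b* in WT-Sham fall below 1 CPM per kb, where lines that leave the axis reach 0.

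A call needed an absolute log2 fold change above 0.58 and, by edgeR's quasi-likelihood test, an adjusted p (Benjamini-Hochberg, over all genes tested) under 0.05, and groups were said not to overlap when their batch-adjusted log2 CPM values were fully apart. *Lif*, *Il12b* and *Il10* passed the filter through the groups in which they were higher, so they are left out of the counts set against all genes here and are described on their own. Of the other 7 genes, each with 10 counts or more in all 12 libraries, 6 were called in WT-tFCI vs. WT-Sham, against 32.6% of all genes tested. *Tnf* and *Osm* rose (20.9% of all genes rose) and *Il6*, *Tnfrsf1b*, *Il10ra* and *Il6ra* fell (11.7%). In miKO-tFCI vs. miKO-Sham, 4 of the 7 were called (35.8% of all genes), *Il6*, *Tnfrsf1b*, *Il10ra* and *Il6ra*, all lower (13.9%, with 21.9% of all genes higher). In miKO-Sham vs. WT-Sham, 3 of the 7 were called (15.4%), *Tnf*, *Osm* and *Tnfrsf1b*, each of them higher (8.58%, with 6.80% of all genes lower). In miKO-tFCI vs. WT-tFCI, 3 of the 7 were called (8.79%), *Tnf*, *Osm* and *Il6ra*, each of them lower (4.71%, with 4.08% of all genes higher). The median log2 fold change of the 7 genes was -0.60, -0.79, 0.36 and -0.35 in these comparisons in turn, against 0.02 to 0.04 for all genes. Groups did not overlap for 6, 5, 4 and 5 of the 7, against 57.5%, 52%, 35.6% and 33.7% of all genes. The comparisons share groups, so their counts are not independent of each other. Of the 3 low genes, all were called higher in WT-tFCI vs. WT-Sham, *Lif* also in miKO-tFCI vs. miKO-Sham and *Il12b* also in miKO-Sham vs. WT-Sham.

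**Figure D2:**
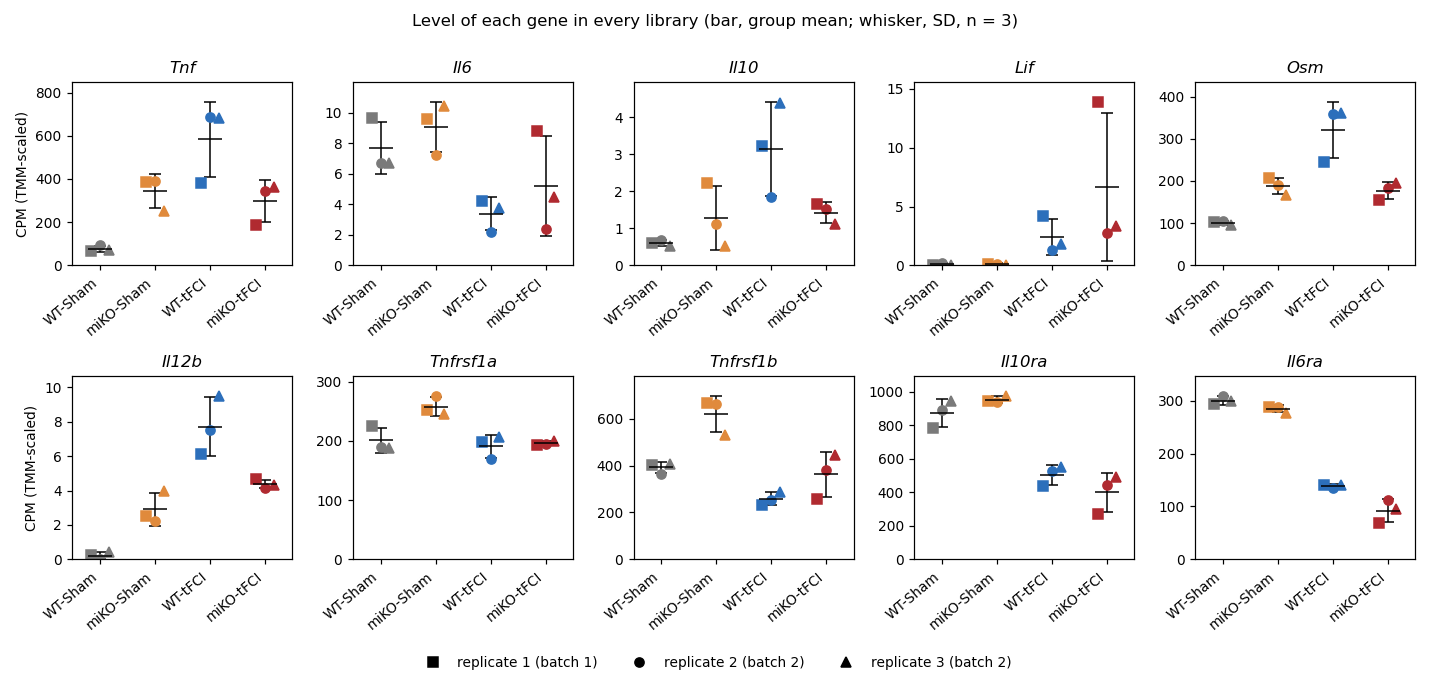
CPM of each gene in every library by group, with the group mean (bar) and SD (whisker, n = 3); each panel has its own linear axis from 0, and squares are the batch 1 libraries. The means of *Tnf*, *Osm* and *Il12b* are lowest in WT-Sham and highest in WT-tFCI with both miKO means between, whereas *Il6ra* and *Il10ra* are lower in both tFCI groups than in both sham groups.

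*Tnf* (ENSMUSG00000024401.14, chr17:35199381-35202007) was at 66.6, 93.0 and 70.3 CPM in WT-Sham replicates 1 to 3 and at 382, 685 and 683 CPM in WT-tFCI. It was at 388, 392 and 252 CPM in miKO-Sham and at 188, 344 and 364 CPM in miKO-tFCI. Every library of the other 3 groups thus lay above every WT-Sham library, and the miKO groups overlapped each other. *Tnf* rose 7.45-fold in WT-tFCI vs. WT-Sham (log2 fold change 2.90 ± 0.25 SE, edgeR adjusted p = 6.08e-07) and was 4.61-fold higher in miKO-Sham than in WT-Sham (2.21 ± 0.24, edgeR adjusted p = 1.56e-05). In miKO-tFCI vs. miKO-Sham the log2 difference was -0.28, with a 95% interval from -0.77 to 0.22 (edgeR adjusted p = 0.356), and within batches it was -1.05 in batch 1 and 0.17 in batch 2. Ordered by group, WT-tFCI was first, then miKO-Sham, miKO-tFCI and WT-Sham, and batch-adjusted libraries of neighbours overlapped except between miKO-tFCI and WT-Sham.

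After tFCI, *Tnf* was lower in miKO than in WT, at 0.511 of the WT level (log2 fold change -0.97 ± 0.23 SE, edgeR adjusted p = 0.0163), with -1.02 within batch 1 and -0.95 within batch 2. The call was lost without WT-tFCI replicate 2 (edgeR adjusted p = 0.0774), WT-tFCI replicate 3 (0.0813) or miKO-tFCI replicate 1 (0.0614), and without the batch term (0.0789), while the log2 fold change stayed between -1.18 and -0.81 over all 20 alternatives. Thus the genotype difference had opposite signs in sham and stroke. The surgery effect in miKO minus that in WT, the interaction, was -3.18 ± 0.33 SE on the log2 scale (95% interval -3.89 to -2.46, edgeR adjusted p = 0.00014), and it was -3.56 within batch 1 and -2.91 within batch 2.

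The receptors of TNF moved less. *Tnfrsf1a* (TNFR1, ENSMUSG00000030341.17, chr6:125349362-125362484) was at 225, 190 and 188 CPM in WT-Sham, 252, 276 and 245 in miKO-Sham, 198, 169 and 206 in WT-tFCI and 193, 195 and 200 in miKO-tFCI. Only miKO-Sham stood above the other groups without overlap, and no pairwise comparison reached the fold needed for a call. Its log2 difference was -0.07 in WT-tFCI vs. WT-Sham (95% interval -0.34 to 0.20), -0.40 in miKO-tFCI vs. miKO-Sham (-0.67 to -0.13, edgeR adjusted p = 0.0209), 0.36 in miKO-Sham vs. WT-Sham (0.09 to 0.63) and 0.04 in miKO-tFCI vs. WT-tFCI (-0.23 to 0.31).

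*Tnfrsf1b* (TNFR2, ENSMUSG00000028599.10, chr4:145213463-145246870) was at 404, 365 and 407 CPM in WT-Sham, 668, 661 and 529 in miKO-Sham, 233, 255 and 289 in WT-tFCI and 259, 381 and 446 in miKO-tFCI. miKO-Sham was the highest group and WT-tFCI the lowest, while miKO-tFCI spread from the range of WT-tFCI to above WT-Sham. It was 1.58-fold higher in miKO-Sham than in WT-Sham (log2 fold change 0.66 ± 0.17 SE, edgeR adjusted p = 0.0151), fell to 0.658 of the sham level after tFCI in WT (-0.60 ± 0.17, edgeR adjusted p = 0.013) and to 0.577 in miKO (-0.79 ± 0.17, edgeR adjusted p = 0.00219). These changes lie near the threshold of 0.58, and 3 of the calls were not held throughout. That of WT-tFCI vs. WT-Sham was lost without WT-Sham replicate 1 (adjusted p = 0.0505), without WT-tFCI replicate 1 (0.0549) and in batch 2 alone (log2 fold change -0.50, edgeR), that of miKO-Sham vs. WT-Sham without WT-Sham replicate 2 (0.0912), WT-Sham replicate 3 (0.0603) or miKO-Sham replicate 1 (0.0946, edgeR), and that of miKO-tFCI vs. miKO-Sham in batch 2 alone (log2 fold change -0.55). In miKO-tFCI vs. WT-tFCI the log2 difference was 0.47 (95% interval 0.10 to 0.84, edgeR adjusted p = 0.102) and passed only without miKO-tFCI replicate 1 (0.65, edgeR adjusted p = 0.0197).

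Other TNF superfamily genes were read from lists of pathway genes. Of 8 ligands tested, 3 rose in WT-tFCI vs. WT-Sham (20.9% of all genes rose) and 3 in miKO-tFCI vs. miKO-Sham (21.9%). In miKO-Sham vs. WT-Sham 1 rose and 2 fell (8.58% and 6.8% of all genes), and in miKO-tFCI vs. WT-tFCI 3 fell (4.71%). *Tnf* was among the called ligands in each comparison except miKO-tFCI vs. miKO-Sham. *Tnfsf14*, which rose after tFCI in both genotypes, had at most 1 count in any sham library. *Tnfsf9* (4-1BB ligand) was at 2.35 to 4.69 CPM in WT-Sham, 51.0 to 105 in WT-tFCI and 17.1 to 26.4 in miKO-tFCI, with a log2 fold change of 4.53 after tFCI in WT (edgeR adjusted p = 7.64e-08) and -1.92 in miKO-tFCI vs. WT-tFCI (edgeR adjusted p = 0.000401). *Tnfsf13b* (BAFF, a B cell survival factor) was lower in miKO in both surgeries, by log2 -1.37 in Sham and -1.18 after tFCI (edgeR adjusted p = 0.00293 and 0.0155). Of 21 receptors tested, 7 rose and 3 fell in WT-tFCI vs. WT-Sham, and 10 rose and 5 fell in miKO-tFCI vs. miKO-Sham. *Tnfrsf13b* (TACI, a BAFF receptor) was lower in miKO than in WT in both surgeries (log2 -3.65 and -1.94, edgeR adjusted p = 1.23e-08 and 1.12e-05).

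Of 25 genes of the receptor signalling complex, 4, 7, 3 and 4 were called after tFCI in WT and in miKO and between genotypes in Sham and after tFCI, against 32.6%, 35.8%, 15.4% and 8.79% of all genes, with list medians of -0.12, -0.22, -0.02 and -0.13. *Tnfaip3* (A20, a brake on NF-kB) was lower in miKO by log2 -0.66 in Sham and -1.21 after tFCI (edgeR adjusted p = 0.0369 and 0.00214), and *Traf1* rose after tFCI in both genotypes (3.26 in WT and 3.43 in miKO, edgeR adjusted p = 0.000529 and 0.000115). The sheddase *Adam17* was at 94.3 to 208 CPM over all libraries and was called in no comparison (log2 differences -0.20 to 0.04). Of 16 genes of TNF shedding and cytokine mRNA control, 8, 6, 5 and 4 were called in the same order of comparisons, against the same shares. In miKO-tFCI vs. WT-tFCI, 1 was called higher and 3 lower (4.08% and 4.71% of all genes). *Zc3h12a* (Regnase-1) and *Zfp36* (tristetraprolin), whose products break down cytokine mRNA, were among the lower ones (log2 -1.35 and -0.81, edgeR adjusted p = 0.000297 and 0.00471), whereas *Zfp36l2*, of the same family as *Zfp36*, was at 142 to 200 CPM in WT-tFCI and 145 to 241 in miKO-tFCI and was not called. *Zfp36* also fell after tFCI by log2 -1.09 in WT and -1.41 in miKO (edgeR adjusted p = 8.47e-05 and 9.5e-06).

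In the IL-6 family, *Osm* followed the groups as *Tnf* did, and *Il6* and *Lif* did not. *Osm* (oncostatin M, ENSMUSG00000058755.3, chr11:4236420-4241026) was at 102, 104 and 95.3 CPM in WT-Sham and at 244, 358 and 360 CPM in WT-tFCI. It was at 206, 190 and 167 CPM in miKO-Sham and at 154, 183 and 194 CPM in miKO-tFCI. WT-Sham was lowest and WT-tFCI highest, both without overlap, and the miKO groups overlapped between them. *Osm* rose 3.17-fold after tFCI in WT (log2 fold change 1.67 ± 0.16 SE, edgeR adjusted p = 1.66e-06), was 1.88-fold higher in miKO-Sham than in WT-Sham (0.91 ± 0.16, edgeR adjusted p = 0.000752) and was 0.554 of the WT level in miKO-tFCI (-0.85 ± 0.15, edgeR adjusted p = 0.00317). In miKO-tFCI vs. miKO-Sham the log2 difference was -0.10 (95% interval -0.43 to 0.23, edgeR adjusted p = 0.639). The interaction was -1.76 ± 0.22 SE (95% interval -2.23 to -1.30, edgeR adjusted p = 0.000449), with -1.68 and -1.77 within batches 1 and 2. On chromosome 11, 16530 bases separate *Osm* from *Lif*, which lies on the same strand.

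*Il6* (interleukin-6, ENSMUSG00000025746.11, chr5:30013114-30019981) was low and fell rather than rose. It was at 9.62, 6.72 and 6.67 CPM in WT-Sham and at 4.19, 2.19 and 3.78 CPM in WT-tFCI. It was at 9.58, 7.21 and 10.4 CPM in miKO-Sham and at 8.78, 2.39 and 4.45 CPM in miKO-tFCI. miKO-tFCI replicate 1, in batch 1, stood with the sham libraries, and the remaining tFCI libraries lay below every sham library. Behind these values were 19 to 85 counts per library. *Il6* fell to 0.442 of the sham level in WT (log2 fold change -1.18 ± 0.36 SE, edgeR adjusted p = 0.0168), a call lost without WT-tFCI replicate 1 (0.0686) or replicate 2 (0.065) and without the batch term (0.0523). In miKO it fell to 0.537 (-0.90 ± 0.35, edgeR adjusted p = 0.0499), at the edge of the threshold, with -0.12 within batch 1 and -1.34 within batch 2. That call was lost in 13 of 20 alternatives, with edgeR adjusted p up to 0.18. They include the fits without WT-Sham replicates 2 or 3 (0.0533 and 0.0528), miKO-Sham replicates 2 or 3 (0.0579 and 0.175), WT-tFCI replicates 1 or 2 (0.051 and 0.0525) and miKO-tFCI replicates 2 or 3 (0.18 and 0.0853). No genotype difference was called (0.27 in Sham, 95% interval -0.44 to 0.99, and 0.56 after tFCI, -0.22 to 1.33).

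*Lif* (leukemia inhibitory factor, ENSMUSG00000034394.14, chr11:4257557-4272514) was nearly absent from the sham libraries, with 0, 2 and 0 counts in WT-Sham and 1, 1 and 0 in miKO-Sham. After tFCI it had 35, 11 and 15 counts (4.19, 1.27 and 1.83 CPM) in WT and 135, 22 and 27 counts (13.9, 2.76 and 3.34 CPM) in miKO. All 6 tFCI libraries thus exceeded all sham libraries, and in each genotype the batch 1 library was the highest. By counts summed over each group, the ratio of tFCI to Sham was 32.6 in WT (95% interval 8.66 to 276) and 79.4 in miKO (21.7 to 661), intervals that cover counting error only. Both rises were called (edgeR adjusted p = 0.000646 in WT and 7.64e-05 in miKO). With so few sham counts, the fitted log2 fold change of 4.68 in WT became 3.5 without WT-Sham replicate 1 and 7.61 without WT-Sham replicate 2 and 3.67 in batch 2 alone, and that of 5.82 in miKO became 6.49 without miKO-Sham replicate 2, 5.19 without miKO-tFCI replicate 1 and 5.20 in batch 2 alone. In miKO-tFCI vs. WT-tFCI *Lif* was higher by log2 1.28 with groups apart (95% interval 0.14 to 2.43, edgeR adjusted p = 0.145), which was not called, but was with only the compared groups in the fit (1.30, edgeR adjusted p = 0.0181).

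*Il6ra* (the IL-6 receptor alpha chain, ENSMUSG00000027947.11, chr3:89864059-89913196) was at 293, 309 and 299 CPM in WT-Sham, 288, 288 and 277 in miKO-Sham, 140, 135 and 141 in WT-tFCI and 69.1, 112 and 95.2 in miKO-tFCI. The sham groups were close together, every WT-tFCI library was below them, and every miKO-tFCI library was lower still. *Il6ra* fell to 0.462 of the sham level in WT (log2 fold change -1.11 ± 0.15 SE, edgeR adjusted p = 3.87e-05) and to 0.321 in miKO (-1.64 ± 0.15, edgeR adjusted p = 1.45e-06). In miKO-tFCI vs. WT-tFCI it was at 0.660 (-0.60 ± 0.15, edgeR adjusted p = 0.0184), with -1.02 within batch 1 and -0.41 within batch 2. That call was lost in 7 of 20 alternatives, among them the fits without WT-tFCI replicate 1 (0.0567), 2 (0.0514) or 3 (0.071) and without miKO-tFCI replicate 1 (log2 fold change -0.44, edgeR adjusted p = 0.0557). The interaction was -0.53 (95% interval -0.96 to -0.09, edgeR adjusted p = 0.191) and was not called. *Il6ra* shares 242 exon bases with *Gm42809* on the other strand, and whether reads were counted by strand is not given in the sources used here, so a small share of its counts is uncertain.

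Of the IL-6 family ligands, with *Il6*, *Lif* and *Osm* among them, all 8 tested were called in WT-tFCI vs. WT-Sham, 5 higher and 3 lower, and the list median was 2.73. *Il11*, at 0 counts in every sham library, reached 2.08 to 14.7 CPM in WT-tFCI and 9.68 to 37.0 in miKO-tFCI and was higher in miKO than in WT after tFCI (log2 1.84, edgeR adjusted p = 0.00543). *Clcf1* (cardiotrophin-like cytokine) was lower in miKO by log2 -0.68 in Sham and -1.23 after tFCI (edgeR adjusted p = 0.0139 and 0.00102). The oncostatin M receptor chain *Osmr* was at 0 to 0.555 CPM in the sham libraries, 2.19 to 9.10 in WT-tFCI and 11.1 to 20.5 in miKO-tFCI. The summed level of 8 endothelial and mural cell markers moved alongside *Il11*, *Osmr* and *Lif*, at 23.3 to 28.4 CPM in WT-Sham, 13.7 to 18.9 in miKO-Sham, 47.3 to 152 in WT-tFCI and 96.9 to 233 in miKO-tFCI, with the batch 1 library highest in both tFCI groups. Of these markers *Rgs5* was at 0 in all WT-Sham libraries. Summed astrocyte markers were likewise highest in the batch 1 library of WT-tFCI (295 CPM) and of miKO-tFCI (615 CPM). So were those of monocytes and macrophages (682 and 1030 CPM), and the pattern was thus not particular to vessel cells. The part of any of these cells in the rises was not tested. gp130 (*Il6st*) fell after tFCI in both genotypes (log2 -0.70 in WT and -0.66 in miKO, edgeR adjusted p = 0.0123 and 0.0148), and *Lifr* was higher in miKO-Sham than in WT-Sham (0.76, edgeR adjusted p = 0.0209).

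*Il10* (interleukin-10, ENSMUSG00000016529.5, chr1:131019845-131024974) was scarce, with 4 to 36 counts per library. It was at 0.601, 0.672 and 0.513 CPM in WT-Sham and at 3.23, 1.85 and 4.39 CPM in WT-tFCI. It was at 2.22, 1.11 and 0.512 CPM in miKO-Sham and at 1.65, 1.51 and 1.11 CPM in miKO-tFCI. WT-tFCI stood above WT-Sham and above miKO-tFCI without overlap, whereas the miKO groups overlapped each other. *Il10* rose 5.21-fold in WT-tFCI vs. WT-Sham (log2 fold change 2.38 ± 0.58 SE, edgeR adjusted p = 0.0048). In miKO-tFCI vs. miKO-Sham the log2 difference was 0.21, with an interval from -1 to 1.42, and in miKO-tFCI vs. WT-tFCI it was -1.16 (-2.30 to -0.02, edgeR adjusted p = 0.185). The interaction was -2.17 (95% interval -3.90 to -0.43, edgeR adjusted p = 0.171), an interval below 0 whose adjusted p did not pass the threshold.

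*Il10ra* (ENSMUSG00000032089.16, chr9:45253837-45269149), the ligand-binding chain for IL-10, was at 782, 894 and 944 CPM in WT-Sham, 947, 939 and 976 in miKO-Sham, 437, 526 and 550 in WT-tFCI and 270, 443 and 490 in miKO-tFCI. Every tFCI library was below every sham library. It fell to 0.577 of the sham level in WT (log2 fold change -0.79 ± 0.15 SE, edgeR adjusted p = 0.00101) and to 0.410 in miKO (-1.29 ± 0.16, edgeR adjusted p = 1.95e-05), and the difference between these falls was -0.49 (95% interval -0.96 to -0.03, edgeR adjusted p = 0.252). The partner chain *Il10rb* was higher in miKO-Sham than in WT-Sham (log2 0.62, edgeR adjusted p = 0.00476) and fell after tFCI in miKO (-0.64, edgeR adjusted p = 0.00151). In WT-tFCI vs. WT-Sham *Il10rb* differed by -0.17 (95% interval -0.45 to 0.12). *Gm20612* overlaps *Il10ra* on the other strand without shared exon bases.

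Among 14 genes of IL-6 and IL-10 receptor signalling, 5 rose and 1 fell in WT-tFCI vs. WT-Sham (20.9% and 11.7% of all genes). In miKO-Sham vs. WT-Sham, 4 rose and 1 fell (8.58% and 6.8%). *Il1rn* (the IL-1 receptor antagonist) rose by log2 3.94 after tFCI in WT and 2.51 in miKO (edgeR adjusted p = 2.7e-07 and 8.87e-06) and was higher in miKO-Sham than in WT-Sham (1.42, edgeR adjusted p = 0.00862). *Bcl3* and *Nfil3*, known as IL-10 response genes in macrophages, rose by 2.2 and 1.89 after tFCI in WT (edgeR adjusted p = 1.93e-06 and 2.5e-06) and were higher in miKO-Sham than in WT-Sham by 1.54 and 0.68 (edgeR adjusted p = 0.000131 and 0.0219). *Socs3*, a brake on gp130 signalling, was lower in miKO-tFCI than in WT-tFCI (-0.62, edgeR adjusted p = 0.0195). In WT, *Socs3* was at 559 to 730 CPM in Sham and 626 to 734 after tFCI. *Etv3*, of the same list, was at 69.5 to 113 and 69.1 to 77.4 CPM there, so the listed genes did not all rise with *Bcl3* and *Nfil3*.

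*Il12b* (p40, ENSMUSG00000004296.14, chr11:44400063-44414033) had 2, 0 and 4 counts in WT-Sham (0.24, 0 and 0.41 CPM) and was at 6.10, 7.50 and 9.5 CPM in WT-tFCI. It was at 2.50, 2.22 and 3.97 CPM in miKO-Sham and at 4.65, 4.15 and 4.33 CPM in miKO-tFCI. The groups did not overlap and stood in the order WT-tFCI, miKO-tFCI, miKO-Sham and WT-Sham. By summed counts *Il12b* was 34.6 times higher after tFCI in WT (95% counting interval 15.6 to 95.4) and 13.2 times higher in miKO-Sham than in WT-Sham (5.73 to 37.2). Both were called (edgeR adjusted p = 1.01e-05 and 0.000572). In miKO-tFCI vs. miKO-Sham the log2 difference was 0.60 (95% interval -0.32 to 1.52, edgeR adjusted p = 0.278) and in miKO-tFCI vs. WT-tFCI it was -0.80 (-1.67 to 0.07, edgeR adjusted p = 0.234).

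The interaction for *Il12b* was -4.42 ± 0.73 SE (95% interval -5.99 to -2.86, edgeR adjusted p = 0.00349), with -2.89 within batch 1 and -3.98 within batch 2. Its size rests on the few WT-Sham counts. The log2 fold change in WT of 5.03 became 4.41 without WT-Sham replicate 2 and 5.81 without WT-Sham replicate 3, that in miKO-Sham vs. WT-Sham of 3.63 became 3.03 and 4.43, and the interaction became -5.25 without WT-Sham replicate 3. Of the subunits that pair with p40, *Il23a* (p19 of IL-23) was at 0 to 0.12 CPM in WT-Sham, 0.512 to 2.08 in miKO-Sham, 0.838 to 1.50 in WT-tFCI and 0.247 to 1.55 in miKO-tFCI. The *Il23a* interaction was called (-4.71, edgeR adjusted p = 0.0447). However, *Il23a* had 2 counts summed over WT-Sham and passed the filter through its higher groups, so the size of that interaction rests on those counts. *Il12a* (p35 of IL-12) had no count in any sham library and at most 0.598 CPM after tFCI, and was too low to be tested. *Ebi3*, a subunit of IL-27 and IL-35, was higher in miKO-Sham than in WT-Sham (log2 1.35, edgeR adjusted p = 1.69e-05) and fell after tFCI in miKO (-1.25, edgeR adjusted p = 1.79e-05).

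**Figure D3:**
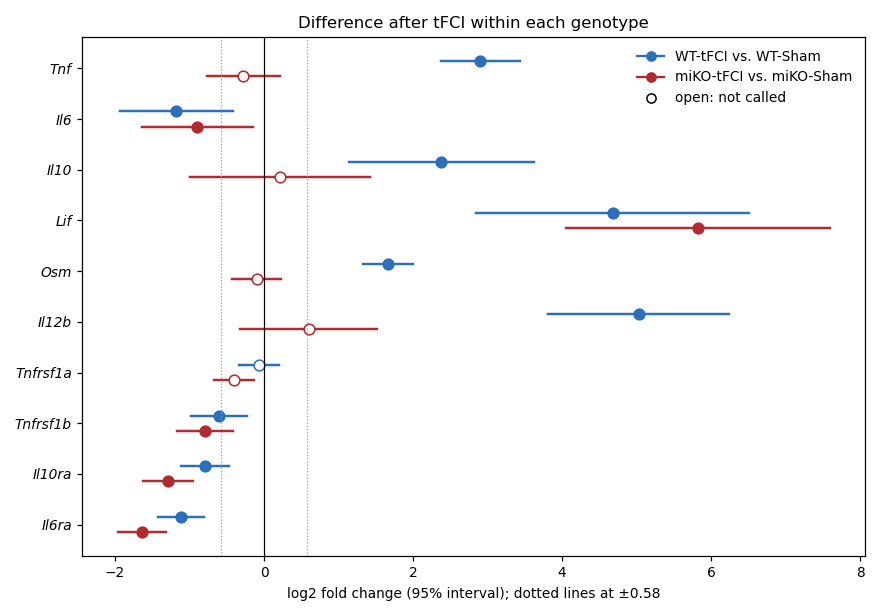
Log2 fold change after tFCI within each genotype (blue, WT; red, miKO) with 95% intervals from edgeR; filled points were called and open points were not. *Tnf*, *Il10*, *Osm* and *Il12b* have filled points in WT (2.90, 2.38, 1.67 and 5.03) and open points in miKO (-0.28, 0.21, -0.10 and 0.60), whereas *Lif*, *Il6*, *Tnfrsf1b*, *Il10ra* and *Il6ra* have filled points in both.

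Set side by side, the response to tFCI differed between genotypes by the test of the interaction for *Tnf* and *Osm*, 2 of those 7 better counted genes, against 3.82% of all genes called in either direction, with 2.57% called lower and 1.25% higher. The interaction was also called for *Il12b*, which had almost no counts in WT-Sham and is left out of that count. The median interaction of the 7 genes was -0.49, against -0.02 for all genes. For the remaining genes the interaction was not called, and its 95% interval included 0 for *Il6*, *Lif*, *Tnfrsf1a* and *Tnfrsf1b* and lay below 0 for *Il10*, *Il10ra* and *Il6ra*. The 3 interactions, and the calls of these genes in WT-tFCI vs. WT-Sham and miKO-Sham vs. WT-Sham, held in every alternative that kept the gene (*Il12b* was dropped where at least 10 counts in every library were required), including the fits without miKO-tFCI replicate 1 and without miKO-Sham replicate 1.

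**Figure D4:**
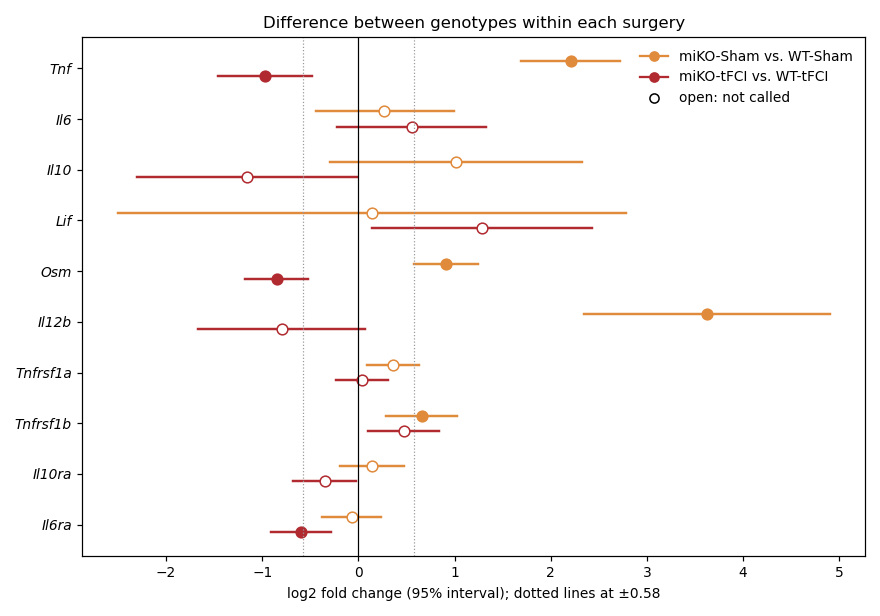
Log2 fold change of miKO over WT within each surgery (orange, Sham; red, tFCI) with 95% intervals from edgeR; filled points were called and open points were not. *Tnf* and *Osm* lie above 0 in Sham (2.21 and 0.91) and below 0 after tFCI (-0.97 and -0.85), both called, and *Il12b* goes from 3.63, called, to -0.80, not called.

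Batch mattered for some genes. Within batches, miKO-tFCI minus WT-tFCI in mean log2 CPM was -1.02 and -0.95 for *Tnf*, -0.66 and -0.93 for *Osm*, -0.38 and -0.96 for *Il12b* and -0.88 and -1.02 for *Il10*, so that these cytokines were lower in miKO in both batches. *Lif* was higher in miKO in both batches (1.68 and 0.89). Over all libraries, *Il12b*, *Il10* and *Lif* were not called in this comparison (edgeR adjusted p = 0.234, 0.185 and 0.145). *Tnfrsf1a* differed in sign between batches (-0.04 and 0.08), and the difference for *Il6* was 1.03 in batch 1 and 0.17 in batch 2. Batch 1 holds 1 library per group and gives no error of its own.

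**Figure D5:**
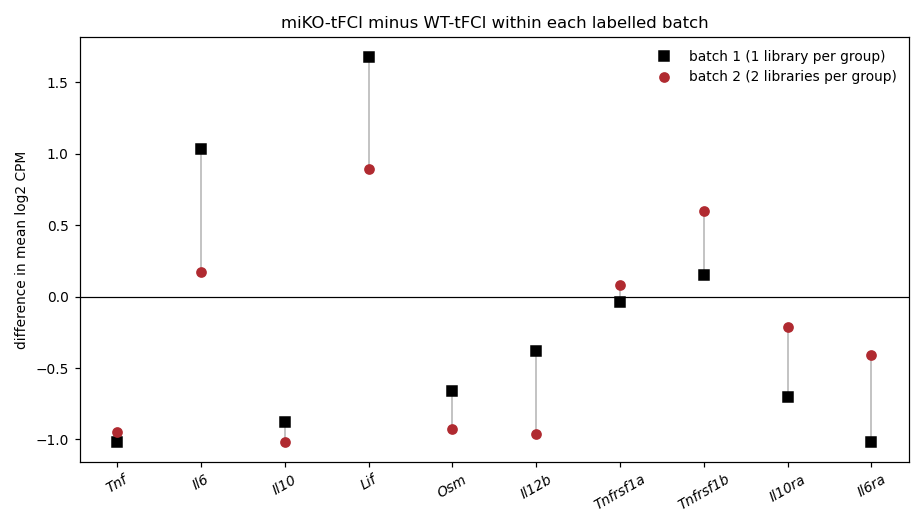
Difference in mean log2 CPM between miKO-tFCI and WT-tFCI within batch 1 (square, 1 library per group) and batch 2 (circle, 2 libraries per group) for the 10 genes. Both symbols lie below 0 for *Tnf*, *Il10*, *Osm*, *Il12b*, *Il10ra* and *Il6ra* and above 0 for *Il6*, *Lif* and *Tnfrsf1b*.

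Early response genes, which microglia also switch on during tissue dissociation, moved in both directions after tFCI in WT. The summed level of 18 such genes was 31400 to 34100 CPM in WT-Sham, 21400 to 21900 in miKO-Sham, 13800 to 15900 in WT-tFCI and 7380 to 10200 in miKO-tFCI, with none of the 18 at 0 throughout a group, and abundant genes such as *Fos* (6830 to 8490 CPM in WT-Sham and 2590 to 2830 in WT-tFCI), *Jun*, *Dusp1* and *Egr1* made up much of it. In WT-tFCI vs. WT-Sham, 9 of the 18 fell and 6 rose (11.7% and 20.9% of all genes). Those that rose included *Nr4a1* (log2 1.79, edgeR adjusted p = 1.53e-05), *Nr4a2* (1.85, edgeR adjusted p = 0.0309) and *Nfkbiz* (0.83, edgeR adjusted p = 0.00267). In miKO-Sham vs. WT-Sham, 9 fell and 2 rose (6.8% and 8.58% of all genes), *Ier3* by log2 1.22 (edgeR adjusted p = 0.000158). In miKO-tFCI vs. WT-tFCI, 12 were called lower and 0 higher by edgeR (4.71% and 4.08% of all genes). The lower ones included *Nr4a1* (-1.98, edgeR adjusted p = 5.95e-05), *Egr1* (-1.21, edgeR adjusted p = 0.000517) and *Nfkbiz* (-1.23, edgeR adjusted p = 0.000858). The part of these genes' change in the values for the cytokines was not tested.

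For each gene called in a pairwise comparison, the 3 tested genes with the smallest root mean square difference from it in centred, batch-adjusted log2 CPM over the 12 libraries were found, as a description. *Tnf*, whose own spread was 1.10, was nearest to *Bcl2a1d* (0.286) and *Ifi30* (0.395), and *Bcl2a1d* has near-identical copies among which reads may be split. *Osm* (spread 0.604) was nearest to *Rasgef1b* (0.224), *Wdr62* (0.232) and *Rab20* (0.248), and *Il12b* (1.64) to *Dna2* (0.493), *Olr1* (0.517) and *Il1b* (0.573). *Lif* (1.88) was nearest to *Fgfr1* (0.291), *Plscr2* (0.318) and *Mxra8* (0.334), and *Il6* (0.641) to *Rad9b*, *Nupr1l* and *Zkscan6* (0.277 to 0.292). *Il10* (0.800) was nearest to *Cln6*, *Wdr62* and *Incenp* (0.340 to 0.344). Among receptors, *Il6ra* (0.737) was nearest to *Med12l* (0.0499), *Ctc1* (0.093) and *Ier5* (0.118), *Il10ra* (0.558) to *Slc29a3*, *Hpgds* and *Csf1r* (0.0890 to 0.106), and *Tnfrsf1b* (0.484) to *Herc4*, *Atg16l1* and *6820431F20Rik* (0.105 to 0.126). *Csf1r*, the receptor for CSF1, is itself one of the microglia markers.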

How the data were processed

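RNA of sorted CD45int CD11b+ microglia was sequenced from 12 libraries, 3 in each of 4 groups taken from the labels. Per the submitters' processing notes and labels, SMART-Seq v4 libraries were sequenced paired-end on NovaSeq, and FastQC 0.11.9, Trim Galore, HISAT2 2.2.1, SAMtools and HTSeq 1.99.2 were used with mm10 and GRCm38.p6. The counts were deposited by the authors per gene, without normalization. Lines that name no gene (61.5% to 69.3% of counted reads) were left out. Symbols and coordinates came from GENCODE M21 (GRCm38) and promoters from RefSeq.

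The main test was edgeR's quasi-likelihood test (version 4.0.16, under R 4.3.3), with group and labelled batch as terms across the 12 libraries, after filterByExpr and with TMM factors of 0.864 to 1.11. Benjamini-Hochberg adjusted p under 0.05 over 16451 genes with absolute log2 fold change above 0.58, the thresholds of the study, made a call. The study itself used DESeq2, which was run here as an alternative (DESeq2 1.42.0), beside RLE scaling, other filters, no batch term, a replicate block, the compared groups alone, batch 2 alone, and each library left out. CPM was computed with TMM library sizes, and log2 CPM with a prior count of 2. Standard errors were derived from the test statistic, and p-values rest on the spread between pooled samples. Ratios of low counts have exact binomial intervals that cover counting error only. The steps were tested on simulated data.

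The genes, the pathway and marker lists and the rule for naming genes were chosen with earlier results of these data known. Named were the 10 genes, *Hdac3*, *Cx3cr1*, shared receptor chains and partner subunits, up to 4 called genes without group overlap per list and comparison, the 3 nearest genes by pattern, and genes overlapping the 10. Not every gene that this rule names is reported here. Of 264 listed genes, 257 were matched by symbol, and the remaining 7 were not analysed here. Lists of T and NK cells, B cells, mast cells and basophils, dendritic cells, neurons, astrocytes and oligodendrocytes were also summed.

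Whether replicate numbers pair samples was checked from the correlation of deviations of same-numbered samples from their group means. In miKO-tFCI vs. WT-tFCI it was 0.666, 0.334 and 0.324 for replicates 1 to 3. Elsewhere it was -0.057 to 0.236, and not every pair exceeded 0.1. These values were not adjusted for batch, and same-numbered samples share a labelled batch, so the check cannot tell pairing from batch.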

Additional observations from a re-analysis of the deposited data

Results flagged for a closer look

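The effect of tFCI differed between WT and miKO by the test of the interaction for 3 cytokine genes. For *Tnf* the log2 difference between the surgery effects (miKO minus WT) was -3.18 (edgeR adjusted p = 0.00014), with *Tnf* at 76.6 ± 14.3 CPM in WT-Sham, 583 ± 174 in WT-tFCI, 344 ± 79.8 in miKO-Sham and 299 ± 96.5 in miKO-tFCI (SD, n = 3). For *Osm* it was -1.76 (edgeR adjusted p = 0.000449), from 100.0 ± 4.47, 321 ± 66.6, 188 ± 19.6 and 177 ± 20.6 CPM in the same order. For *Il12b* it was -4.42 (edgeR adjusted p = 0.00349), from 0.217 ± 0.206, 7.7 ± 1.71, 2.90 ± 0.941 and 4.37 ± 0.253 CPM, and its size rests on 6 counts in WT-Sham. In each case every miKO-Sham library was above every WT-Sham library and every miKO-tFCI library was below every WT-tFCI library on batch-adjusted log2 CPM.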

How the results depend on the processing

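Of 24 called values of the 10 genes, none reversed over 471 alternative values, and 17 kept the call in every alternative run. Under the replicate block, which pairs same-numbered samples, 9, 5, 4, 3 and 3 of the 10 genes were called after tFCI in WT, after tFCI in miKO, between genotypes in Sham, between genotypes after tFCI and in the interaction, as without it, and 5325, 5871, 2490, 1429 and 612 of all genes, so the block changed no call among the 10.

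Over all genes, the count in miKO-tFCI vs. WT-tFCI (1446) became 2193 without a filter, 701 without the batch term and 2535 with the compared groups alone, and the interaction count (629) became 1272 and 303 in the former pair of fits. With at least 10 counts in every library, which leaves fewer genes, miKO-tFCI vs. miKO-Sham gave 3744 genes and 3 of the 10, and without the batch term miKO-tFCI vs. WT-tFCI gave 1 of the 10. Leaving out each library gave 4542 to 5593, 4677 to 6266, 1954 to 2677, 616 to 1667 and 281 to 883 genes in the comparisons in the order above, and 7 to 9, 4 to 5, 3 to 4, 1 to 3 and 3 to 3 of the 10. The lowest count of 1 came without WT-tFCI replicate 2 or 3.

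Values not called changed sign as follows, with the range over the left-out libraries where one of them did so. In batch 2 alone, miKO-tFCI vs. miKO-Sham became 0.11 for *Tnf* and 0.05 for *Osm*, *Lif* in miKO-Sham vs. WT-Sham became -0.59 and the *Il6* interaction -0.23. In miKO-tFCI vs. miKO-Sham, *Tnf* ran from -0.55 to 0.06, *Osm* from -0.21 to 0.07 (both above 0 without miKO-Sham replicate 1) and *Il10* from -0.15 (without miKO-Sham replicate 3) to 0.76. In miKO-Sham vs. WT-Sham, *Lif* ran from -1.04 (without WT-Sham replicate 1) to 3.07, also being -0.20 and -0.52 without WT-Sham replicate 3 and miKO-Sham replicate 2, and *Il10ra* from -0.01 (without miKO-Sham replicate 1) to 0.22. *Tnfrsf1a* in miKO-tFCI vs. WT-tFCI ran from -0.04 (without WT-tFCI replicate 2) to 0.12, and was just below 0, at 0 when rounded, without WT-tFCI replicate 1. The interaction ran from -0.12 to 0.58 for *Il6* and from -0.34 to 0 for *Tnfrsf1b* (-0.12 and 0 being without miKO-tFCI replicate 1), and from -1.81 (without WT-Sham replicate 2) to 2.31 for *Lif*. The cause was not tested.

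Counting error limits *Lif*, *Il12b* and *Il10*, and 3 pooled libraries per group, 1 of them in batch 1, limit the rest.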

Other observations

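Markers of further cell types were summed in the same libraries, and their part in the values of the cytokine genes was not tested. The sums are given for the sham groups first (WT, then miKO) and then for the tFCI groups (WT, then miKO). Dendritic cell markers were at 1740 to 1820, 685 to 903, 850 to 1050 and 311 to 581 CPM, mostly *Siglech*, which is also a microglia marker, except in 1 miKO-tFCI library. The other 6 dendritic cell genes together were at 14.6 to 20.4, 10.1 to 14.5, 17.9 to 110 and 47.6 to 334 CPM, and *Ccr7* and *Flt3* were called higher after tFCI in both genotypes by edgeR. *Ccr7* was at 0 to 1.56, 1.11 to 4.87, 5.54 to 71.1 and 36.2 to 239 CPM in these groups. B cell markers were at 443 to 513, 331 to 434, 272 to 367 and 175 to 236 CPM, mostly *Ighm*. The other 8 B cell genes together were at 27.5 to 57.6, 6.38 to 17.3, 34.4 to 73.8 and 31 to 102 CPM, and *Ebf1* was called higher after tFCI in both genotypes by edgeR, from at most 0.555 CPM in the sham libraries to 1.1 to 2.03 in WT-tFCI and 1.85 to 6.09 in miKO-tFCI. T and NK cell markers stayed low, at 2.56 to 5.17, 4.87 to 7.49, 1.83 to 10.9 and 2.39 to 12.2 CPM, with *Ncr1* at 0 in every library. Mast cell and basophil markers were at 0.205 to 1.32, 1.15 to 3.05, 0.366 to 7.18 and 2.26 to 20.9 CPM. Astrocyte markers were at 182 to 198, 112 to 137, 172 to 295 and 217 to 615 CPM, of which *Slc1a3* made up most in the sham libraries (the other 6 genes were at 7.17 to 13.8, 15.5 to 19.7, 57.8 to 195 and 164 to 529 CPM), and *Gfap* rose after tFCI in both genotypes (log2 6.95 in WT and 6.22 in miKO, edgeR adjusted p = 5.71e-08 and 3.53e-08). Oligodendrocyte markers were at 193 to 221, 151 to 190, 183 to 279 and 213 to 324 CPM, and neuron markers at 2.15 to 2.88, 11.8 to 15.8, 4.14 to 10.7 and 11.2 to 12.3 CPM, the miKO-Sham values being mostly *Rbfox3* (9.09 to 14.8 CPM).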
